A study of Rattus norvegicus with 6 samples.

Results

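Semaphorins are secreted or membrane-bound guidance proteins, and plexins and neuropilins are the receptors that read them. All 30 symbols of these families that the expression tables hold, out of 29468 gene symbols, were compared between Schwann cell precursors (SCPs) and repair Schwann cells (RSCs) of the rat. The members were taken by name, as every symbol from Sema3 to Sema7 with one letter, every plexin symbol of the A to D classes with one digit, and Nrp1 and Nrp2. There were 20 ligand genes and 10 receptor genes, the latter being 8 plexins and 2 neuropilins. SCPs were prepared from the sciatic nerves of both sides and the brachial plexus of embryos at embryonic day 14, without treatment. RSCs were prepared from the distal part of cut sciatic nerves of 10-week-old adults, 1 week after the cut. All animals were labelled as wild-type LEWIS rats, and each group had 3 samples. The cells were freed by enzymes and left on uncoated plastic for a short time so that adherent cells stayed behind, but they were not sorted, so each sample was a mixed preparation. The paper reports that most cells of both preparations carried the Schwann cell marker Sox10 when immunolabelled in culture. Adult nerves were cut into pieces and digested for longer, with more collagenase, than embryonic ones. Age, injury, the tissue taken and its digestion all differ between the groups and cannot be told apart.

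Class 3 semaphorins are secreted and mostly bind a neuropilin, which holds the ligand while a class A plexin carries the signal into the cell. Sema3e is the known exception, since it binds Plxnd1 directly. Classes 4 to 6 span the membrane and bind plexins without a neuropilin, and Sema7a is tethered by a lipid anchor and binds Plxnc1 and beta-1 integrins. In the nerve these proteins are known for steering axons and neural crest cells, from which Schwann cells arise, and for regulating immune cells and vessels.

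Values are FPKM, fragments scaled to the length of the transcript and to the number of mapped fragments, summed over the named transcripts of a symbol, so that levels of different genes can be set side by side. Differences are log2 fold changes of FPKM + 1, RSC minus SCP, a scale that understates the change of low genes. A gene was called at an unadjusted p under 0.01 in limma's test. The study used this p threshold in its own comparison, where differentially expressed genes also had to pass a log2 fold change of 2. The Benjamini-Hochberg adjusted p over the 13003 genes tested, those averaging 1 FPKM or more, is printed. In bulk RNA, fewer cells of a type and less RNA per cell cannot be told apart. The absolute depth of the samples is unknown. Relative to the deepest sample, the read coverage behind 1 FPKM was 0.88 to 1.00 in SCPs and 0.79 to 0.84 in RSCs. The median log2 fold change over all tested genes was -0.17, and median-of-ratios scaling moved it to 0.02.

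Beside the named transcripts the tables hold transcripts without a gene name that Cufflinks assembled in each sample. At the members' loci these took 24.9 to 33.0% of the FPKM in SCPs and 10.1 to 18.0% in RSCs, and 27 of the 30 members had at least 1. Of the 180 values of members, 23 were listed at 0 with named transcripts alone and 0 after the unnamed transcripts of the same locus were added. The median SD between replicates on the log2 scale was 0.32 without them and 0.20 with them. Each value below is for named transcripts unless it is said to include the unnamed ones, an alternative chosen after seeing the data.

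The preparations were checked against cell type markers. Sox10, the transcription factor of the Schwann lineage, stood at 175 to 181 FPKM in SCPs and 143 to 149 FPKM in RSCs. S100b was 3.21 to 19.3 FPKM in SCPs and 782 to 924 FPKM in RSCs, and of 6 tested Schwann lineage markers 3 were higher in RSCs and 1 in SCPs. With unnamed transcripts of the same locus 7 were tested, of which 6 were higher in RSCs and 1 in SCPs. Of all genes tested that way, 23.2% were higher in RSCs and 34.2% in SCPs. The 8 leukocyte markers summed to 13.3 to 39.2 FPKM in SCPs and 2726 to 2955 FPKM in RSCs, with all 8 called higher in RSCs and none at 0 in RSCs. Fibroblast markers summed to 641 to 1020 FPKM in SCPs and 5360 to 8011 FPKM in RSCs, with 5 of 6 called. Endothelial markers summed to 37.2 to 61.7 FPKM in SCPs and 92.1 to 94.8 FPKM in RSCs, with 1 of 7 called. The called gene was Cldn5, with means of 11.2 FPKM in SCPs and 42.5 FPKM in RSCs. Pecam1 and Kdr had lower means in RSCs, while Cdh5, Tek, Emcn and Egfl7 had higher ones, and none of these was called. With unnamed transcripts of the same locus the endothelial sums overlapped between the groups. Mural markers summed to 73.0 to 249 FPKM and 108 to 172 FPKM, with 1 of 4 tested called higher in RSCs. With unnamed transcripts of the same locus 5 mural markers were tested, of which 2 were higher in RSCs and 1 in SCPs. In the other direction, embryonic erythroid genes summed to 16680 to 74640 FPKM in SCPs and at most 1.48 FPKM in RSCs, with 4 of 4 tested called. Skeletal muscle genes summed to 60.6 to 252 FPKM in SCPs and 23.2 to 29.8 FPKM in RSCs, with 4 of 5 called higher in SCPs and Des higher in RSCs. Neuronal genes summed to 33.2 to 60.7 FPKM and 23.1 to 30.9 FPKM, with 2 of 5 tested called higher in SCPs. Apart from the mural sums, which overlapped, these sums of named transcripts differed between the groups without overlap. The part of these cell types in the results below was not tested.

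Of the 27 members that passed the filter on low values, 8 were higher in RSCs, 8 were higher in SCPs and 11 were not called. Of all genes tested, 18.1% were called higher in the RSC group and 22.4% in the SCP group. The values of the 3 RSCs and the 3 SCPs did not overlap for 21 of the 27 members and for 58.6% of all tested genes. Of the 17 tested ligands, 6 were higher in RSCs, 5 were higher in SCPs and 6 were not called. Of the 10 receptors, 2 were higher in RSCs, 3 were higher in SCPs and 5 were not called. Past 4-fold as well, 3 ligands were higher in RSCs (background 7.81%), and 2 ligands and 1 receptor were higher in SCPs (background 3.78%). Here 4-fold means a log2 fold change of FPKM + 1 over 2 in size. A ratio of the means can be larger, as for Sema4a (6.60-fold), which did not pass. The median log2 fold change was -0.25 over the tested ligands and 0.13 over the receptors. Sema4d, Sema5b and Sema6d did not pass the filter. With unnamed transcripts of the same locus included, 29 members were tested, of which 10 were higher in RSCs and 9 in SCPs, beside 23.2% and 34.2% of all genes tested that way.

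**Figure D1:**
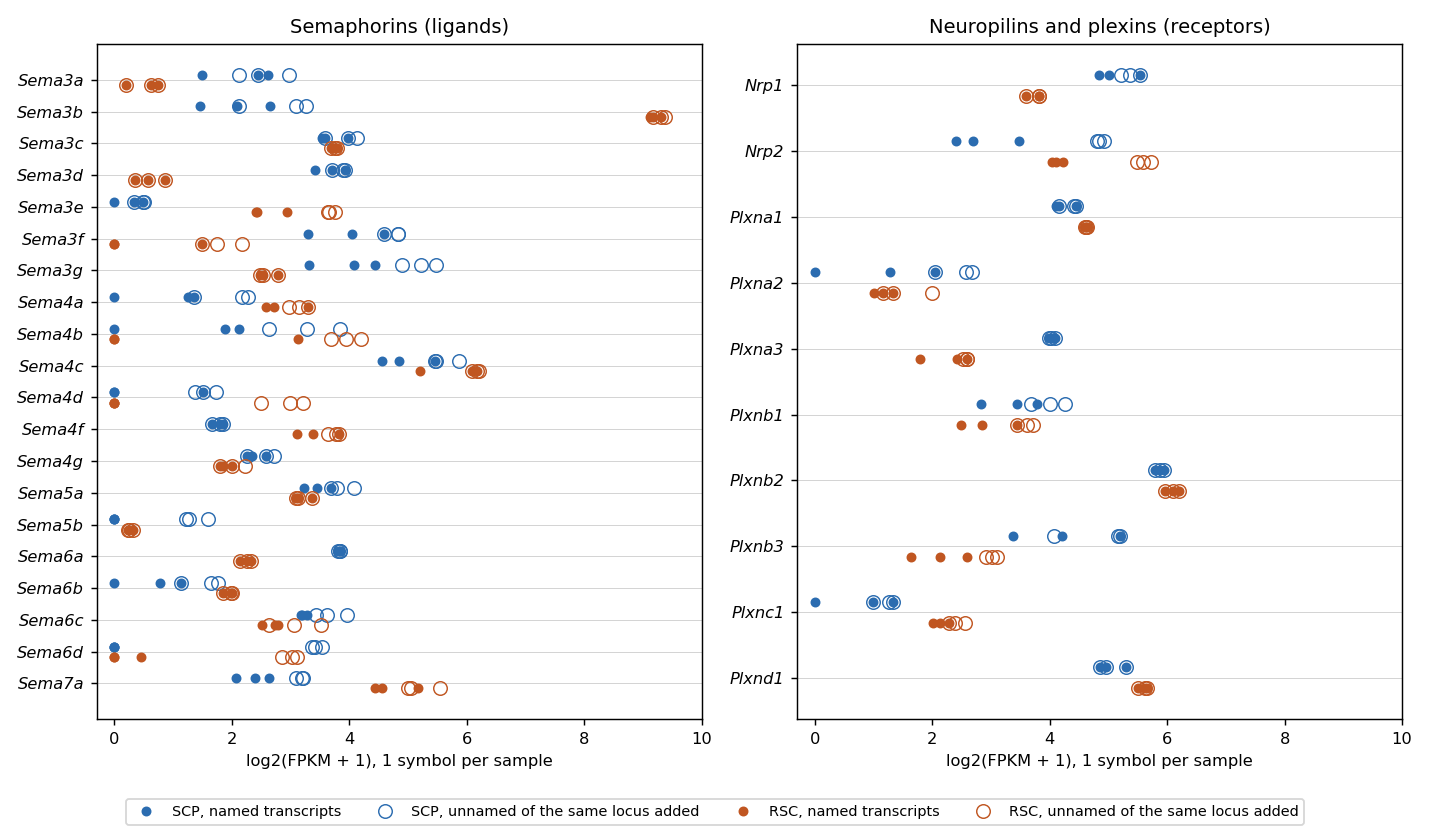
Each point is the level of one gene in one sample on the log2(FPKM + 1) axis, SCPs in blue and RSCs in orange, with filled points for named transcripts and open rings after adding unnamed transcripts of the same locus. Sema3b in the 3 RSCs stands alone at the right, at 554 to 630 FPKM, and each ring lies at or to the right of the filled point of its sample.

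The semaphorin message of RSCs was mostly that of 1 gene. Ligand FPKM summed to 118, 159 and 143 in SCPs 1 to 3 and to 727, 731 and 756 in RSCs 1 to 3. Sema3b made up 76.2, 79.0 and 83.3% of that sum in RSCs 1 to 3 and 1.48 to 3.32% in SCPs. Without Sema3b the remaining 19 ligands summed to 137 ± 18.6 FPKM (SD, n = 3) in SCPs and 151 ± 23.4 FPKM (SD, n = 3) in RSCs, a difference smaller than the spread between samples. With unnamed transcripts the ligand sum was 230 ± 10.9 FPKM in SCPs and 836 ± 52.2 FPKM in RSCs (SD, n = 3), and Sema3b held 74.0 to 74.7% of it in RSCs.

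Receptor FPKM summed to nearly the same level in both groups, 197 ± 6.85 FPKM in SCPs and 186 ± 9.79 FPKM in RSCs (SD, n = 3), and the individual sums overlapped. Plxnd1 took 16.2 ± 2.24% of receptor FPKM in SCPs and 25.4 ± 1.00% in RSCs (SD, n = 3), without overlap. The class B plexins took 44.7 ± 5.19% and 41.7 ± 3.13% (SD, n = 3), which overlapped. The share of the 2 neuropilins together, 20.9 ± 3.86% in SCPs and 15.6 ± 1.90% in RSCs, overlapped between the groups, and with unnamed transcripts it was 28.3 ± 1.22% and 26.4 ± 2.15% (SD, n = 3).

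**Figure D2:**
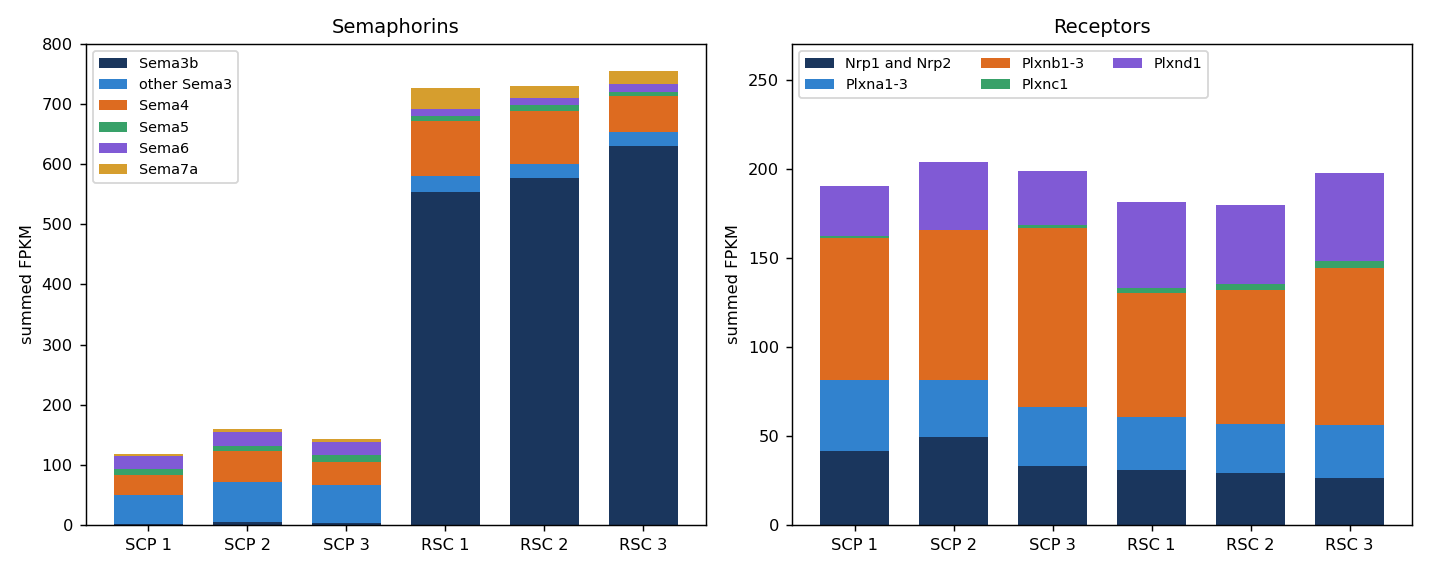
Bars give the FPKM summed over the members of each class in each sample, with semaphorins on the left and receptors on the right, on separate axes that start at 0. Ligand sums are 118 to 159 FPKM in SCPs and 727 to 756 FPKM in RSCs, where Sema3b fills most of the bar, while receptor sums are 180 to 204 FPKM in all samples.

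Of the 7 class 3 ligands, the SCPs were higher for 4 (22.4% of all tested genes) and the RSCs for 2 (18.1%), and 1 was not called. Sema3b, which binds both neuropilins and is also known as a tumour suppressor, was 1.76, 5.27 and 3.26 FPKM in SCPs 1 to 3 and 554, 577 and 630 FPKM in RSCs 1 to 3. The groups lay far apart, a 171-fold ratio of the means, and the log2 fold change was 7.13 (95% interval 6.41 to 7.85, adjusted p = 3.3e-05). All of this FPKM sat on 1 named transcript of 2747 bases, for which the 95% intervals of Cufflinks ran from 541 to 577 FPKM in RSC 1 and from 3.93 to 6.56 FPKM in SCP 2, the highest SCP. With unnamed transcripts the log2 fold change was 6.46.

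Sema3e, which acts on Plxnd1 and restrains the growth of vessels, was the other class 3 ligand higher in RSCs. It was 0.40 and 0.26 FPKM in SCPs 1 and 2, was listed at 0 in SCP 3, and was 6.65, 4.36 and 4.34 FPKM in RSCs 1 to 3. All RSCs were above all SCPs, with a log2 fold change of 2.32 (95% interval 1.67 to 2.97, adjusted p = 9.8e-04). Cufflinks marked its main named transcript as having low data in all 6 samples. The mark was not limited to Sema3e. The main named transcripts of Sema3a, Sema3g and Sema7a carried it in SCPs 1 to 3, as did the transcript with all named Plxnb3 FPKM of SCP 3. With unnamed transcripts Sema3e was 0.40, 0.26 and 0.42 FPKM in SCPs and 11.5, 11.6 and 12.5 FPKM in RSCs, a log2 fold change of 3.24.

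Sema3d, a secreted ligand that patterns axons and veins, showed the reverse. It was 9.61, 12.04 and 14.2 FPKM in SCPs 1 to 3 and 0.49, 0.28 and 0.81 FPKM in RSCs 1 to 3, a 22.7-fold ratio of the means with no overlap. The log2 fold change was -3.08 (95% interval -3.67 to -2.50, adjusted p = 2.4e-04). Sema3d and Sema3e are members of a group of 4 class 3 genes on chromosome 4 of the rn6 genome, in the order Sema3c, Sema3e, Sema3a and Sema3d, which spans 5095 kb. Sema3e lies at 17314745 to 17594598 and Sema3d at 19224378 to 19413519 on that chromosome, 1630 kb apart with Sema3a between them. The ratio of Sema3e to Sema3d was at most 0.042 in SCPs and 5.35 to 15.5 in RSCs.

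The bases before the starts of these neighbours are shown because the genes moved in opposite directions. The sequences are the 250 bases before the RefSeq start in the GRCr8 rat assembly, both on the minus strand, at chr4:21510375-21510624 for Sema3e and chr4:23460972-23461221 for Sema3d, read 5′ to 3′ toward the gene. Capitals mark the motifs searched on both strands, the GC box (GGGCGG, or CCGCCC on the other strand) in Sema3e and the SOX core (ACAAAG) in Sema3d.
Sema3e: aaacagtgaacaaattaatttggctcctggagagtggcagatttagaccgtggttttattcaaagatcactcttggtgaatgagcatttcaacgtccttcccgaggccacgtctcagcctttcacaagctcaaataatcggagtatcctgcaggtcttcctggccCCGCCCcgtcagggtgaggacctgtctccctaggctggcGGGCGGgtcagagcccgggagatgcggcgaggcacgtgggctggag
Sema3d: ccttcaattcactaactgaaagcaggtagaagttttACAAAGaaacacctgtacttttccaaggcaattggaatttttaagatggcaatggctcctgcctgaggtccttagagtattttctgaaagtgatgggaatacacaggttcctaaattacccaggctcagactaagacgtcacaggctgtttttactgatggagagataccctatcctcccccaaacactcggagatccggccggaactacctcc
The Sema3e stretch was 55.6% G and C and held 2 GC boxes, and the Sema3d stretch was 44.8% G and C with 1 SOX core match. Over all 33469 RefSeq promoters of the same length the median was 51.2% G and C, 30.5% held a GC box and 16.3% held a SOX core. RefSeq entries matched 23 of the 30 members, without Sema3a, Sema3b, Sema3f, Sema4d, Sema4g, Sema5a and Plxna1. A GC box was found in 13 of the 23, a SOX core in 5 (Plxnb1, Plxnb2, Plxnb3, Sema3d and Sema4f), and the AP-1 motif (TGANTCA, in 6.34% of all promoters) in 0.

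Sema3f, the classical Nrp2 ligand that repels sympathetic and some sensory axons, was 15.5, 23.1 and 8.82 FPKM in SCPs 1 to 3, was listed at 0 in RSCs 1 and 3, and was 1.80 FPKM in RSC 2. The groups did not overlap, with a log2 fold change of -3.48 (95% interval -4.80 to -2.17, adjusted p = 0.0031). With unnamed transcripts the values were 27.5, 23.1 and 27.6 FPKM in SCPs and 3.53, 1.80 and 2.36 FPKM in RSCs, a log2 fold change of -2.95 (adjusted p = 3.7e-05). Sema3f and Sema3b lie on chromosome 8 of rn6 at 116439996 to 116469915 and 116353791 to 116363577, 76.4 kb apart, and changed in opposite directions. Of the 3 genes between them Gnai2, a G protein subunit, was tested and had a log2 fold change of 0.67, higher in RSCs. Among the 27 other tested genes within 500 kb, 6 were called higher in RSCs and 8 higher in SCPs, with log2 fold changes from -3.70 to 3.18.

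**Figure D3:**
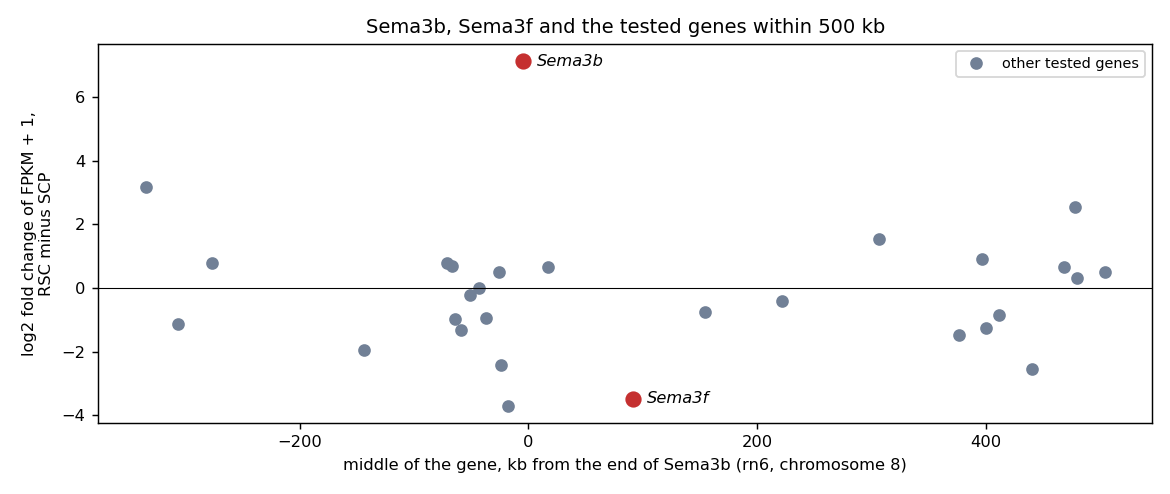
Points give the log2 fold change of FPKM + 1, RSC minus SCP, of each tested gene against the distance of its middle from the end of Sema3b in kb. Sema3b (7.13) is the highest point, Sema3f (-3.48) is among the lowest, and the 27 other genes (grey) scatter between -3.70 and 3.18.

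Sema3g, an Nrp2 ligand known from arteries, was 8.92, 15.9 and 20.6 FPKM in SCPs 1 to 3 and 5.85, 4.55 and 4.77 FPKM in RSCs 1 to 3, a log2 fold change of -1.35 (adjusted p = 0.014). Unnamed transcripts changed its size most among the called ligands. With them it was 28.6, 36.2 and 43.7 FPKM in SCPs, the RSC values did not change, and the log2 fold change was -2.60 (adjusted p = 3.8e-05), past 4-fold. Sema3a, the best known axon repellent of the class, was low in both groups, at 1.83, 4.45 and 5.14 FPKM in SCPs 1 to 3 and 0.54, 0.15 and 0.67 FPKM in RSCs 1 to 3. Its groups did not overlap, and the log2 fold change was -1.67 (95% interval -2.57 to -0.76, adjusted p = 0.013). Sema3c, which guides neural crest cells into the outflow tract of the heart, was 11.1, 10.6 and 14.8 FPKM in SCPs and 12.6, 11.9 and 12.8 FPKM in RSCs. Its values overlapped, and the 95% interval of its log2 fold change ran from -0.35 to 0.43. Without Sema3b, the class 3 ligands summed to 59.1 ± 10.2 FPKM in SCPs and 24.2 ± 1.69 FPKM in RSCs (SD, n = 3).

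Class 4 ligands were higher in RSCs where they were called. Sema4f, a membrane ligand studied at contacts of Schwann cells with axons, was 2.59, 2.47 and 2.16 FPKM in SCPs 1 to 3 and 9.45, 13.2 and 7.59 FPKM in RSCs 1 to 3, with a log2 fold change of 1.67 (95% interval 1.10 to 2.24, adjusted p = 0.0021). Sema4a, known from immune cells, was listed at 0 in SCP 1, was 1.38 and 1.55 FPKM in SCPs 2 and 3, and was 8.78, 4.95 and 5.56 FPKM in RSCs 1 to 3. Its log2 fold change was 1.99 (95% interval 0.92 to 3.07, adjusted p = 0.012), and 1.21 with unnamed transcripts. The RSCs, where leukocyte markers summed to 2726 to 2955 FPKM, were the higher group for both genes, and the part of these markers was not tested.

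The most abundant class 4 ligand, Sema4c, which binds Plxnb2, was 22.6, 43.0 and 27.6 FPKM in SCPs 1 to 3 and 70.8, 67.4 and 36.0 FPKM in RSCs 1 to 3. RSC 3 overlapped the SCPs, and the gene was not called, with a log2 fold change of 0.87 (95% interval 0.03 to 1.72, adjusted p = 0.084). With unnamed transcripts RSC 3 was 72.7 FPKM, the groups no longer overlapped, and the log2 fold change of 0.55 was called (adjusted p = 0.0073). Sema4d, a ligand of Plxnb1 that is also shed by lymphocytes, was listed at 0 in 5 of 6 samples and was not tested. With unnamed transcripts it was 1.84, 1.60 and 2.34 FPKM in SCPs and 6.92, 4.65 and 8.25 FPKM in RSCs, a log2 fold change of 1.36 that was called (adjusted p = 0.0017). Sema4b was listed at 0 in 3 of 6 samples, and its values overlapped both without and with unnamed transcripts (log2 fold changes -0.29 and 0.69, not called). Sema4g was 3.798 to 4.999 FPKM in SCPs and 2.49 to 3.03 FPKM in RSCs and was not called (log2 fold change -0.51, 95% interval -0.98 to -0.04, adjusted p = 0.072).

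Class 5 semaphorins carry thrombospondin repeats beside the sema domain. Sema5a was 9.89, 8.32 and 11.8 FPKM in SCPs and 7.54, 9.30 and 7.73 FPKM in RSCs, overlapping and not called (log2 fold change -0.25, adjusted p = 0.29). With unnamed transcripts it was 11.8 to 15.9 FPKM in SCPs and was called higher there, with a log2 fold change of -0.65 (adjusted p = 0.0075). Sema5b was listed at 0 in the SCPs and was at most 0.25 FPKM in RSCs. With unnamed transcripts it was 1.33 to 2.003 FPKM in SCPs, the RSC values did not change, and it was tested on neither basis.

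Among the class 6 ligands Sema6a was higher in SCPs and varied little between samples. This membrane ligand of class A plexins, known from the boundary cap cells that hold motor neurons inside the spinal cord, was 13.3, 13.4 and 13.1 FPKM in SCPs 1 to 3 and 3.98, 3.77 and 3.43 FPKM in RSCs 1 to 3. Its log2 fold change was -1.59 (95% interval -1.93 to -1.26, adjusted p = 3.4e-04) and was -1.59 with unnamed transcripts as well. Sema6b, of the same class, was 1.19 and 0.71 FPKM in SCPs 1 and 2, listed at 0 in SCP 3, and 2.59, 2.96 and 3.02 FPKM in RSCs 1 to 3. Its log2 fold change was 1.31 (adjusted p = 0.022), but 0.44 with unnamed transcripts, where it was not called. Sema6c was 8.02 to 8.66 FPKM in SCPs and 4.70 to 5.90 FPKM in RSCs, with a log2 fold change of -0.54 that missed the threshold (adjusted p = 0.030). Sema6d was listed at 0 in 5 of 6 samples; with unnamed transcripts it was 9.26 to 10.6 FPKM in SCPs and 6.23 to 7.66 FPKM in RSCs and was not called (log2 fold change -0.43, adjusted p = 0.019).

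Sema7a, the lipid-anchored ligand that promotes axon growth through integrins and acts on immune cells, was 3.18, 4.28 and 5.18 FPKM in SCPs 1 to 3 and 35.1, 20.8 and 22.5 FPKM in RSCs 1 to 3. The lowest RSC was above the highest SCP, and the log2 fold change was 2.36 (95% interval 1.73 to 2.99, adjusted p = 8.3e-04). With unnamed transcripts it was 2.03. The gene lies on chromosome 8 of rn6, at 62723788 to 62746536.

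In order of level, Sema4c led the SCP ligands with a mean of 31.0 FPKM, but its lowest value overlapped Sema3f, and no neighbours down to Sema6c, the eighth, were apart. In RSCs Sema3b (587 FPKM), Sema4c (58.1 FPKM) and Sema7a (26.1 FPKM) each lay clear of the next, followed by Sema3c (12.4 FPKM) and Sema4f (10.1 FPKM), which overlapped. With unnamed transcripts Sema3b, Sema4c and Sema7a still led in RSCs, each clear of the next. In SCPs Sema3g (36.2 FPKM) and Sema3f (26.1 FPKM) then followed Sema4c, each clear of the next.

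**Figure D4:**
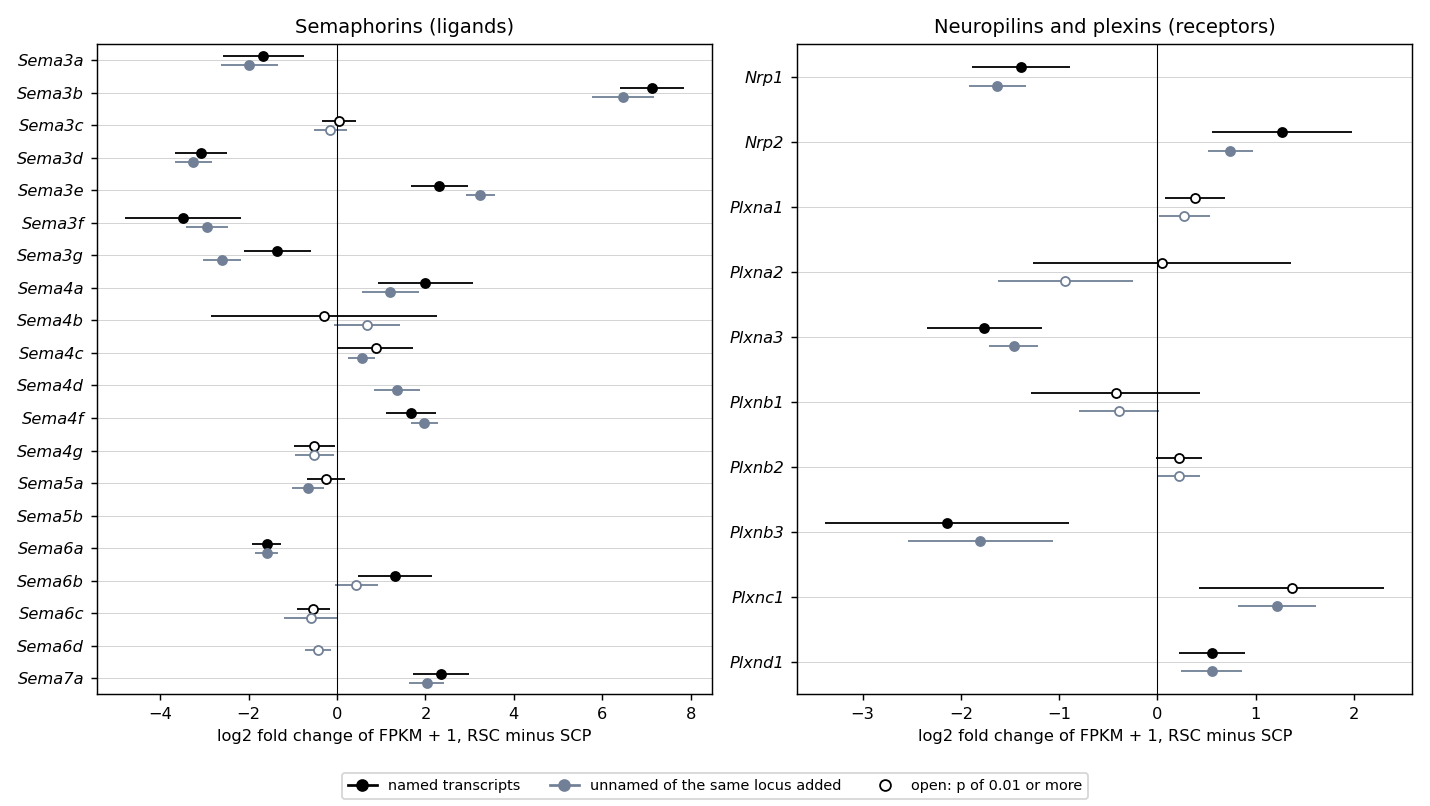
Points give the log2 fold change of FPKM + 1, RSC minus SCP, with limma's 95% interval over 3 samples a group, for named transcripts (black) and after adding unnamed transcripts of the same locus (grey). Filled points passed p under 0.01; Sema3b (7.13) lies furthest to the right, and Sema3f (-3.48) and Sema3d (-3.08) furthest to the left, among the ligands.

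The 2 neuropilins changed in opposite directions. Nrp1, the receptor of Sema3a and a co-receptor for vascular endothelial growth factor, was 31.1, 45.3 and 27.8 FPKM in SCPs 1 to 3 and 13.1, 13.2 and 11.1 FPKM in RSCs 1 to 3, a 2.80-fold ratio of the means. Its log2 fold change was -1.39 (95% interval -1.88 to -0.89, adjusted p = 0.0026). Nrp2, the receptor of Sema3f, was 10.1, 4.29 and 5.46 FPKM in SCPs 1 to 3 and 17.7, 16.3 and 15.5 FPKM in RSCs 1 to 3, with a log2 fold change of 1.27 (95% interval 0.55 to 1.98, adjusted p = 0.014). The ratio of Nrp1 to Nrp2 within a sample was 3.07, 10.6 and 5.09 in SCPs 1 to 3 and 0.74, 0.81 and 0.72 in RSCs 1 to 3, so the more abundant neuropilin differed between the groups. With unnamed transcripts, which held most of the Nrp2 FPKM in every sample, Nrp2 was 27.0 to 29.5 FPKM in SCPs and 43.8 to 52.2 FPKM in RSCs, a log2 fold change of 0.74 (adjusted p = 5.5e-04). The ratio was then 1.23 to 1.68 in SCPs and 0.25 to 0.28 in RSCs, on the same sides of 1. Nrp1 lies on chromosome 19 of rn6 at 61332351 to 61486166 and Nrp2 on chromosome 9 at 69496878 to 69609802.

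Class A plexins carry the signal of class 3 and class 6 ligands. Plxna3, which is needed for Sema3f signalling, was 15.99, 15.3 and 14.8 FPKM in SCPs 1 to 3 and 4.35, 2.48 and 5.04 FPKM in RSCs 1 to 3. Its log2 fold change was -1.76 (95% interval -2.34 to -1.18, adjusted p = 0.0019). Plxna1 was 20.8, 16.3 and 16.9 FPKM in SCPs and 23.9, 23.6 and 23.3 FPKM in RSCs, without overlap but not called (log2 fold change 0.38, adjusted p = 0.049). The ratio of Plxna1 to Plxna3 was 1.07 to 1.30 in SCPs and 4.62 to 9.52 in RSCs. Plxna2 was at most 3.13 FPKM in any sample and overlapped, with a log2 fold change of 0.05 whose 95% interval ran from -1.26 to 1.37. With unnamed transcripts its groups no longer overlapped, at 3.13 to 5.41 FPKM in SCPs and 1.23 to 3.01 FPKM in RSCs. The log2 fold change was then -0.94 (adjusted p = 0.025), again not called.

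Of the class B plexins, receptors of class 4 ligands, Plxnb2 was the most abundant receptor of both groups. It was 57.7, 60.5 and 54.8 FPKM in SCPs 1 to 3 and 61.2, 67.7 and 73.0 FPKM in RSCs 1 to 3, and was not called (log2 fold change 0.22, 95% interval -0.02 to 0.45, adjusted p = 0.11). Plxnb3, a Sema5a receptor, was 9.38, 17.5 and 35.8 FPKM in SCPs 1 to 3 and 2.12, 3.36 and 5.05 FPKM in RSCs 1 to 3. The SCPs differed widely among themselves but lay above the RSCs, and the log2 fold change was -2.14 (95% interval -3.38 to -0.90, adjusted p = 0.016). With unnamed transcripts it was -1.80 (adjusted p = 0.0021), short of a log2 fold change of 2 in size, while the ratio of the means was 4.08. Plxnb1, the Sema4d receptor, was 6.09 to 12.8 FPKM in SCPs and 4.61 to 9.91 FPKM in RSCs and overlapped (log2 fold change -0.42, adjusted p = 0.37).

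Plxnd1, the receptor of Sema3e, was 28.0, 38.3 and 30.0 FPKM in SCPs 1 to 3 and 48.0, 44.3 and 49.4 FPKM in RSCs 1 to 3, a 1.47-fold ratio of the means. It was called higher in RSCs with a log2 fold change of 0.55 (95% interval 0.22 to 0.89, adjusted p = 0.019), but the call was lost without a variance trend, with quantile normalization and in 5 of the 6 fits that left out 1 sample. Plxnc1, the Sema7a receptor, was 0.99 and 1.51 FPKM in SCPs 1 and 3, listed at 0 in SCP 2, and 3.05, 3.36 and 3.89 FPKM in RSCs 1 to 3. Its log2 fold change of 1.37 missed the threshold (adjusted p = 0.029), and with unnamed transcripts it was 1.22 and was called (adjusted p = 7.7e-04). Endothelial markers, of which 1 of 7 (Cldn5) was called, summed to 92.1 to 94.8 FPKM in RSCs against 37.2 to 61.7 FPKM in SCPs. With unnamed transcripts of the same locus these endothelial sums overlapped. Leukocyte markers summed to 2726 to 2955 FPKM in RSCs. The part of both marker lists in the levels of these receptors was not tested.

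In both groups Plxnb2 stood above all other receptors without overlap. In SCPs it was followed by Nrp1 (34.7 FPKM) and Plxnd1 (32.1 FPKM), which overlapped. In RSCs Plxnd1 (47.2 FPKM), Plxna1 (23.6 FPKM), Nrp2 (16.5 FPKM) and Nrp1 (12.4 FPKM) followed, each clear of the next. This order held for named transcripts only. With unnamed transcripts Nrp2 (47.8 FPKM) came second in RSCs and overlapped Plxnd1 (47.2 FPKM), which was clear of Plxna1 (23.6 FPKM).

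Of the 16 calls, 9 held in each of the 6 fits that left out 1 sample, those of Sema3b, Sema3d, Sema3e, Sema3f, Sema4f, Sema6a, Sema7a, Nrp1 and Plxna3. The other 7 were lost without RSC 1, without RSC 2 and without RSC 3. Their log2 fold changes over the 6 fits were -2.01 to -1.45 for Sema3a, -1.66 to -1.10 for Sema3g, 1.56 to 2.24 for Sema4a, 0.99 to 1.56 for Sema6b, 1.04 to 1.58 for Nrp2, -2.58 to -1.67 for Plxnb3 and 0.46 to 0.68 for Plxnd1. The calls of Sema3a, Sema3g, Nrp2 and Plxnb3 were also lost without SCP 2 and without SCP 3, that of Sema6b without SCP 2, and that of Plxnd1 without SCP 1 and without SCP 3. Other settings ended the call of Sema3g (median-of-ratios scaling, log2 fold change -1.16), Sema4a (a pseudocount of 0.1, 3.34), Plxnb3 (median-of-ratios scaling, -1.95, and the highest transcript per gene, -1.75) and Sema6b (a pseudocount of 0.1, 2.65, quantile normalization, 1.17, and the highest transcript per gene, 0.85).

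Receptors of this family work through other membrane proteins and a set of cytoplasmic enzymes and adaptors. Of a list of 45 such partners 41 were tested, of which 10 were higher in RSCs (18.1% of all tested genes), 12 were higher in SCPs (22.4%) and 19 were not called. With unnamed transcripts 43 were tested, of which 15 were called in each direction, beside 23.2% of all genes toward RSCs and 34.2% toward SCPs. Among the 9 tested co-receptors and cis partners, 4 were higher in RSCs and 1 in SCPs, and among the 31 tested cytoplasmic partners, 6 were higher in RSCs and 11 in SCPs. With unnamed transcripts the counts were 7 and 1 of 9 co-receptors and cis partners, and 8 and 14 of 33 cytoplasmic partners. Nrcam and Chl1, named after their values were seen, were called higher in RSCs only that way (log2 fold changes 4.1 and 1.38).

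Among the called partners, those with the largest differences toward RSCs included Trem2 and Tyrobp, a receptor and its adaptor that pair with Plxna1 on myeloid cells. Trem2 was 0.20, 1.46 and 0.42 FPKM in SCPs 1 to 3 and 36.8, 53.0 and 37.6 FPKM in RSCs 1 to 3, a log2 fold change of 4.73 (adjusted p = 1.5e-04) that was 5.81 with unnamed transcripts. Tyrobp was 7.87 to 15.96 FPKM in SCPs and 253 to 342 FPKM in RSCs, a log2 fold change of 4.51 (adjusted p = 8.3e-05), and is itself on the leukocyte marker list, whose sum moved the same way. Rnd1, a GTPase that binds the inner part of plexins, was 0.57 to 0.90 FPKM in SCPs and 15.6 to 17.6 FPKM in RSCs, a log2 fold change of 3.40 (adjusted p = 6e-05) that was 4.396 with unnamed transcripts. Met, a receptor tyrosine kinase that couples to class B plexins, was 0.35 to 2.14 FPKM in SCPs and 15.7 to 17.5 FPKM in RSCs, a log2 fold change of 2.96 (adjusted p = 9.9e-04). Itgb1, the integrin chain bound by Sema7a, was 101 to 116 FPKM in SCPs and 188 to 197 FPKM in RSCs, a log2 fold change of 0.83 (adjusted p = 3.9e-04); it was named after its value was seen.

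Toward SCPs, the called partners with the largest differences included Dpysl4 and Dpysl5. They are collapsin response mediator proteins, a family of which some members relay Sema3a signals to the cytoskeleton. Dpysl4 was 66.4, 63.8 and 66.6 FPKM in SCPs 1 to 3 and 3.27, 3.60 and 3.59 FPKM in RSCs 1 to 3, a log2 fold change of -3.89 (adjusted p = 1.3e-05). Dpysl5 was 5.41 to 8.001 FPKM in SCPs and 0.14 to 0.33 FPKM in RSCs, a log2 fold change of -2.57 (adjusted p = 3.7e-04). The other 3 collapsin response mediator proteins on the list, named after their values were seen, were also called higher in SCPs, as 22.4% of all tested genes were, with log2 fold changes of -2.14 for Crmp1, -1.70 for Dpysl3 (-2.73 with unnamed transcripts) and -0.42 for Dpysl2. L1cam, the adhesion protein that joins Nrp1 in Sema3a reception, was 30.5 to 44.2 FPKM in SCPs, was listed at 0 in RSCs 1 and 2 and was 13.01 FPKM in RSC 3, a log2 fold change of -3.98 (adjusted p = 0.024). With unnamed transcripts L1cam was 37.6 to 44.2 FPKM in SCPs and 16.2 to 19.9 FPKM in RSCs, a log2 fold change of -1.17 (adjusted p = 1.8e-04), under 4-fold. Rasa1, a GTPase activator, was 5.36 to 13.9 FPKM in SCPs, was listed at 0 in RSCs 1 and 3 and was 3.51 FPKM in RSC 2, with a log2 fold change of -2.68 (adjusted p = 0.022) that was -0.58 with unnamed transcripts (adjusted p = 0.0029). Furin, the protease that cleaves class 3 semaphorins, was 19.3 to 77.3 FPKM in SCPs and 19.0 to 85.9 FPKM in RSCs and was not called.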

How the data were processed

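RNA of 3 SCP and 3 RSC samples was sequenced by the authors, and the submitters' processing notes name FastQC 0.11.2, TopHat2 2.1.0, Cufflinks 2.2.1 and the rn6 genome. The authors deposited per sample the Cufflinks transcripts with their FPKM, a value normalized for transcript length and mapped fragments, and the coverage signal used here for relative depth. The authors' Cuffdiff comparison was not used here. Left out were 77 transcripts per sample whose gene names had become dates. FPKM of named transcripts were summed by symbol, and positions count from 1. Genes averaging 1 FPKM or more were tested, two-sided, on log2(FPKM + 1) by limma (version 3.58.1, under R 4.3.3) with a variance trend, after the scripts were tested on simulated data. No count test was run, since the tables hold no counts. Absolute depth is unknown, so no counting error can be given, and precision rests on the 3 samples a group. The study's reporting summary states that 3 sets of cells were made for each group; whether the sets came from separate litters or animals is not given in the sources used here, so p-values measure the spread between these sets. Every member is named, with marker genes and, among the called partners, the 4 of largest change in each direction; other partners are said to be named after their values were seen. The members and lists were chosen with earlier results of these data known. The alternatives were other pseudocounts, filters, scalings, thresholds and transcript sums, no variance trend, a replicate block, zeros set to missing, and each sample left out. Promoters came from RefSeq (GRCr8). One marker gene is not reported here.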

Additional observations from a re-analysis of the deposited data

How the results depend on the processing

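Precision rests on 3 samples a group, and a value of 0 can be a failed estimate. In the counts higher in RSCs, the 6 ligands became 3 with a mean of at least 5 FPKM, since Sema3e, Sema4a and Sema6b were then not tested. All 19 members tested at that filter kept their direction and side of the threshold. The 2 receptors higher in RSCs became 5 with median-of-ratios scaling, 1 without a variance trend and 4 at an adjusted p under 0.05. Median-of-ratios scaling added the calls of Plxna1, Plxnb2 and Plxnc1. Plxna1 was also called with quantile normalization and without SCP 1. The 12 partners higher in SCPs became 6 with median-of-ratios scaling. The ligand median (-0.25) was 0.76 with the highest transcript per gene and 0.04 with zeros set to missing, and the receptor median (0.13) was -0.10 with a mean of at least 5 FPKM and -0.089 with unnamed transcripts of the same locus. The log2 ratio of the ligand sums (2.40) was 2.61 with median-of-ratios scaling, 2.62 with the highest transcript, and 1.84 and 1.86 with unnamed transcripts added by overlap and by locus, and that of the receptor sums (-0.08) was 0.13 with median-of-ratios scaling. Members that changed sign were none of the 16 called. Sema4d (-0.50 with no filter) was 1.36, Sema6d (0.15 with no filter) -0.43, Plxna2 (0.05) -0.94 and Sema3c (0.04) -0.16 with unnamed transcripts under either assignment. Plxna2 was -0.085 with quantile normalization, Sema4g (-0.51) 0.90 with the highest transcript, and Sema4b (-0.29) 0.69 with unnamed transcripts of the same locus and 1.80 with zeros set to missing. Leaving out each sample in turn gave 4 to 6 ligands higher in RSCs and 3 to 5 higher in SCPs, 0 to 2 receptors higher in RSCs and 2 to 3 higher in SCPs, 10 to 12 and 6 to 9 partners, a ligand median of -0.37 to 0.10, a receptor median of -0.13 to 0.34, log2 ratios of 2.29 to 2.49 for the ligand sums, and log2 fold changes of -0.50 to 0.52 for Plxna2, -0.039 to 0.18 for Sema3c and -1.33 to 0.23 for Sema4b. The ligands higher in SCPs numbered 3 without any single RSC and without SCP 2 or SCP 3, and the partners 6 without SCP 1 or SCP 2. No receptor was higher in RSCs at limma's p under 0.01 without RSC 1, RSC 2 or RSC 3, where 3 to 4 were at p under 0.05; 1 was without SCP 3.

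The replicate numbers did not pair the samples, with correlations of the deviations of 0.044, -0.005 and 0.026 for the numbers 1 to 3. With the replicate block the ligands higher in SCPs numbered 3 in place of 5, the receptors higher in RSCs 1 in place of 2 and the partners higher in SCPs 7 in place of 12, and the members called without it and not with it were Sema3a, Sema3g, Sema4a, Sema6b and Plxnd1. Over all 17 alternatives, 374 values of single members kept their direction and side of the threshold, 48 lost the call, 17 gained it and 19 changed sign; the cause of these shifts was not tested.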

Other observations

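The symbol Plxna4a falls outside the naming rule above, and its gene encodes a further class A plexin. It was listed at 0 in the SCPs and was 1.89, 1.66 and 2.96 FPKM in RSCs 1 to 3, with limma's log2 fold change of 1.64 (adjusted p = 0.0031), higher in RSCs.

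Among the named transcripts of Nrp1, one of 5872 bases held 24.7, 36.1 and 27.8 FPKM in SCPs 1 to 3 and 4.16, 10.8 and 7.49 FPKM in RSCs 1 to 3, and was the largest in 5 of 6 samples. In RSC 1 a transcript of 5821 bases was larger, at 5.01 FPKM. The Nrp2 FPKM of named transcripts sat on one of 6854 bases in 5 of 6 samples, and in SCP 1 a shorter one of 3341 bases held 6.22 FPKM, while the 6854-base transcript alone was 3.91, 4.29 and 5.46 FPKM in SCPs 1 to 3 and 17.7, 16.3 and 15.5 FPKM in RSCs 1 to 3. For Sema7a, a transcript of 3137 bases was 13.2 FPKM in RSC 1 and 7.78 FPKM in RSC 3, was listed at 0 in RSC 2, and was at most 1.18 FPKM in SCPs.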
